A study of Mus musculus with 16 samples.

Results

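Interferon-stimulated genes are the genes that cells switch on when an interferon binds its receptor. A list of 53 of them was followed through 16 RNA-seq libraries of kidney and liver, out of 24984 genes with counts. The members were chosen by their known role and with their measured shFOS against shNT changes in kidney and liver in view, so those changes are given as a description and carry no test of the list. All 53 members were found in the count tables, and all 53 passed the filter on low counts in each of the 4 comparisons below. The lowest count of any member in any library was 4 reads, for Ifit3b in liver.

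The animals were wild-type C57BL/6 mice, labelled as 24 months old, which is the age at which the vector was given, and the tissue was taken 3 months later. The labels name 4 groups of 4 libraries each, kidney shNT, kidney shFOS, liver shNT and liver shFOS. Both treatments delivered a short hairpin RNA by an adeno-associated viral vector given intravenously, so the control animals also carried a vector and a hairpin. The shNT hairpin is a non-targeting control and the shFOS hairpin is directed at Fos, a subunit of the AP-1 transcription factor. There was no group without a vector and no young group in these libraries, and a vector given through a vein reaches more than 1 cell type of each organ. The labels number the replicates but do not say whether a kidney and a liver library with the same number came from the same mouse, so p-values measure the spread between libraries.

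Type I interferons act through the receptor chains IFNAR1 and IFNAR2 and lead to a complex that holds STAT2 and IRF9 and binds the interferon-stimulated response element in the promoters of genes such as Ifit1, Isg15 and Mx1. Interferon gamma acts through IFNGR1 and IFNGR2 and leads to binding at a shorter palindrome, the gamma-activated site. The guanylate-binding proteins and the immunity-related GTPases are known for their strong response to interferon gamma and for attacking the vacuoles of intracellular parasites, whereas the IFIT, OAS and MX families are best known as antiviral effectors induced by type I interferons. Below, the term GTPases is used only for the guanylate-binding proteins and the immunity-related GTPases. The dynamin-like GTPases of the MX family, Mx1 and Mx2, are counted with the antiviral effectors. Liver and kidney hold resident macrophages and lymphocytes beside their parenchymal cells. These are bulk libraries, in which fewer cells of a type and less RNA per cell cannot be told apart.

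Counted reads per library ran from 14194543 to 15534665 in kidney and from 16652150 to 18300277 in liver, and levels are given as CPM, reads of the gene scaled to the size of the library, on one scale over the 16 libraries. On that scale 3 reads, taken as the floor of detection, correspond to 0.138 to 0.161 CPM in kidney and to 0.220 to 0.277 CPM in liver. Fos itself was 4.73, 3.66, 2.99 and 3.83 CPM in kidney shNT replicates 1 to 4 against 1.85, 2.95, 2.72 and 1.61 CPM in kidney shFOS, and 1.57, 3.34, 5.19 and 4.05 CPM in liver shNT against 2.31, 2.13, 3.86 and 1.97 CPM in liver shFOS. The 4 kidney shFOS libraries all lay below the 4 shNT libraries for Fos, the groups overlapped in liver, and neither difference passed the edgeR test (log2 difference -0.73 ± 0.25 SE, adjusted p = 0.0947 in kidney, and -0.47 ± 0.38, adjusted p = 0.775 in liver). The labelled tissues carried their defining markers, with the summed level of 6 hepatocyte genes at 63138 CPM or more in every liver library and that of 5 proximal tubule genes at 2542 CPM or more in every kidney library. The library shNT replicate 4 stood apart in both tissues. Albumin (Alb) was 237842, 153308, 146335 and 38704 CPM in liver shNT replicates 1 to 4, and the phosphate transporter Slc34a1 of the proximal tubule was 2394, 2197, 2537 and 1223 CPM in kidney shNT replicates 1 to 4. Results that rest on replicate 4 are therefore also given without it.

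Promoter sequence was available from RefSeq (GRCm38.p6) for 40 of the 53 members. The window searched was the 250 bases before the transcription start, and both strands were read. The core of the interferon-stimulated response element, searched as TTTC, any 2 bases and TTTC again, stood in the window of 20 of 40 members (50.0%) and in 3.46% of 27025 promoters of all genes. The palindrome TTCNNNGAA of the gamma-activated site stood in 14 of 40 (35.0%) against 8.13% of all promoters, and the AP-1 motif TGANTCA in 9 of 40 (22.5%) against 7.82%. Among the GTPases with a promoter in the table, the response element core was found in 4 of 4 guanylate-binding proteins and 5 of 5 immunity-related GTPases, and TTCNNNGAA in 2 of 4 and 4 of 5. A match is a description of the letters in the window and not of a bound site.

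These windows are shown for 6 members as the 140 bases before the start, read 5′ to 3′ in the direction of the gene, as examples of the arrangements found, picked after the matches were seen. Capitals mark the response element core (on the other strand GAAA, any 2 bases and GAAA) and, where present, TTCNNNGAA. Ifit1 (chr19:34640749-34640888 on the plus strand) and Isg15 (chr4:156200819-156200958 on the minus strand) stand for the genes known for type I interferon, and Gbp2 (chr3:142620523-142620662 on the plus strand) for the guanylate-binding proteins. Igtp (chr11:58199416-58199555 on the plus strand), Tgtp1 (chr11:48992247-48992386 on the minus strand) and Tgtp2 (chr11:49064213-49064352 on the minus strand) stand for the immunity-related GTPases.
Ifit1: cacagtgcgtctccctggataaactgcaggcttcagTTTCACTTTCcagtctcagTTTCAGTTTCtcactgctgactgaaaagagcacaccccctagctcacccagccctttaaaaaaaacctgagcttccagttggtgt
Isg15: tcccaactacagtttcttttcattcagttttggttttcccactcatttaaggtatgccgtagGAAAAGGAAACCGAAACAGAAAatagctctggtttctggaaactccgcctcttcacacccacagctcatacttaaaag
Gbp2: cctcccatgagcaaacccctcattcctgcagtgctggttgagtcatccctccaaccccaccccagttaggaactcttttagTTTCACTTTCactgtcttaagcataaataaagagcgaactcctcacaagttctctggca
Igtp: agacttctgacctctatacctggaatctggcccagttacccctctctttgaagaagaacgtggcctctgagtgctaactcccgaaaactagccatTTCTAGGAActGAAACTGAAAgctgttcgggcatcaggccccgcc
Tgtp1: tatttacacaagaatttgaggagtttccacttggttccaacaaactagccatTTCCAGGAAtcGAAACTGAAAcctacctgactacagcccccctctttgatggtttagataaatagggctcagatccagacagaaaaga
Tgtp2: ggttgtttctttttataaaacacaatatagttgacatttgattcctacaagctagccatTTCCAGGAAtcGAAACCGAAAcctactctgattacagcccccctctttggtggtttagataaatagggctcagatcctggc
The Ifit1 window held the core 2 times and the Isg15 window held it 3 times in overlap on the other strand, without TTCNNNGAA. In Igtp, Tgtp1 and Tgtp2 the palindrome stood 2 bases before the core on the other strand. The arrangements did not follow the families throughout, since Oas1a and Bst2 held both elements, whereas Irgm1, Gbp2 and Gbp3 held the core without TTCNNNGAA, and no difference between families was tested. Some pairs of members are so alike that their reads may not have been told apart in counting. The longest open reading frames of Tgtp1 and Tgtp2 were 99.68% identical, those of Ifit3 and Ifit3b 99.09%, those of Oas1a and Oas1g 96.84% and those of Gbp4 and Gbp6 87.82%. The values of these genes are uncertain for that reason. Igtp and Irgm2 overlap by 7974 bases on the same strand, and Dtx3l and Parp9 by 682 bases on opposite strands, and reads were counted without regard to strand.

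Levels in the shNT libraries were compared first. The difference between kidney and liver was not among the values that chose the list, although the shNT libraries themselves entered the shFOS against shNT changes that did. Divided by the length of the longest transcript, Ifitm3, which keeps virus from crossing the endosomal membrane, was the highest member in both tissues with 104 CPM per kilobase in kidney and 969 in liver. Next in kidney came Ifi27 with 50.9, Bst2 with 38.1 and Ifit3 with 22.9 CPM per kilobase. Next in liver came Bst2 with 305, Iigp1 with 261 and Ifi27 with 119 CPM per kilobase. No neighbouring genes in this order were tested against each other.

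Most members were higher in liver than in kidney. Of the 53, 40 had a higher fitted level in liver and 13 in kidney, with a median log2 difference (kidney minus liver) of -1.06, against a median of 0.04 over the 14875 genes tested. In the edgeR quasi-likelihood test 21 members were significantly lower in kidney and 2 were significantly higher (adjusted p under 0.05), which makes 23 of 53, while 60.1% of all genes tested were called, 27.7% lower and 32.3% higher in kidney. Libraries with the same replicate number deviated together between the shNT tissues, and a fit with the replicate number as a block called 42 members, 34 lower and 8 higher in kidney, against 62.7% of all genes. Without kidney shNT replicate 1 or without kidney shNT replicate 3 the count was 16, and without replicate 4 in both tissues it was 26.

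The 3 members with the largest liver excess were Iigp1, Ifitm3 and Bst2. Iigp1, a GTPase that loads onto parasite vacuoles, was 20.3, 105, 24.2 and 8.82 CPM in kidney shNT replicates 1 to 4 and 528, 1910.0, 533 and 289 CPM in liver shNT (log2 difference -4.34 ± 0.93 SE, adjusted p = 0.00298). Ifitm3 was 62.0, 106, 69.7 and 44.2 CPM in kidney and 640.0, 877, 503 and 609 CPM in liver (-3.21 ± 0.31, adjusted p = 2.29e-05). Bst2, or tetherin, which holds budding virus at the cell surface, was 22.8, 57.7, 27.5 and 12.5 CPM in kidney and 243, 409.7, 220.1 and 95.1 CPM in liver (-2.99 ± 0.56, adjusted p = 0.00136). The kidney and liver libraries did not overlap for any of these 3 genes. These genes were picked for the size of the difference, and the share of all genes without overlap between the tissues was not counted. Replicate 2 was the highest and replicate 4 the lowest library of its tissue for each of the 3, apart from Ifitm3 in liver.

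The largest kidney excess was that of Samd9l, an interferon-induced restriction factor, with 139, 131, 150.1 and 68.7 CPM in kidney shNT and 28.9, 40.2, 45.5 and 15.0 CPM in liver shNT (log2 difference 1.92 ± 0.37 SE, adjusted p = 0.00156). Ifit2, of the family that binds viral RNA, followed with 15.0, 30.7, 19.8 and 22.9 CPM in kidney and 6.09, 11.6, 9.51 and 3.15 CPM in liver (1.55 ± 0.38, adjusted p = 0.00643). The third, Rsad2 or viperin, an enzyme that makes an antiviral nucleotide analogue, was 37.1, 38.8, 37.9 and 13.0 CPM in kidney and 14.5, 22.8, 17.8 and 2.55 CPM in liver and did not pass the test (1.15 ± 0.57, adjusted p = 0.11), with an adjusted p of 0.00336 under the replicate block. The first of these did not overlap between the tissues, nor did Ifit2, whereas Rsad2 overlapped through kidney replicate 4. These genes too were picked for the size of the difference, and the share of all genes without overlap was not counted.

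By role, the median difference ran from -1.82 for the immunity-related GTPases to 0.81 for the IFIT family. For comparison with the counts by role, 60.1% of all genes tested were called and 27.7% of all genes were called lower in kidney. The group of the ISG15 system and ubiquitin ligases, with Parp9 and Parp14 of the PARP family counted in it, held 7 genes. All 7 had a lower fitted level in kidney, 5 of them significantly and 7 under the replicate block. Their median log2 difference was -1.21. Trim25, the ubiquitin ligase that activates the RNA sensor RIG-I, was 55.4 ± 5.88 CPM (SD, n = 4) in kidney and 124 ± 31.0 CPM in liver (log2 difference -1.16 ± 0.19 SE, adjusted p = 6.35e-04). Of the 6 transcription factors, 5 had a lower fitted level in kidney and 4 significantly so (5 under the block), among them Stat2 (-1.96 ± 0.26, adjusted p = 1.65e-04) and Irf2 (-1.59 ± 0.12, adjusted p = 5.13e-06). The 3 RNA sensors all had a lower fitted level in kidney, significantly for Ifih1 and Dhx58. Ddx58, which encodes RIG-I, missed the threshold (-0.30 ± 0.21, adjusted p = 0.243) and passed it under the block (adjusted p = 0.0341).

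The values of the GTPases depended on the fit and on single libraries. Of the 6 immunity-related GTPases 2 were called, and all 6 under the block, 5 lower and 1 higher in kidney. None of the 6 guanylate-binding proteins was called without the block, with a median of 0.11, whereas the block called Gbp3, Gbp5 and Gbp6, 2 higher and 1 lower. Without liver shNT replicate 2 the median of the immunity-related GTPases was -0.56 and that of the guanylate-binding proteins 1.08, and over the 12 GTPases together the median turned from -0.90, with 8 lower in kidney, to 0.45, with 5 lower. Without kidney shNT replicate 2 the guanylate-binding proteins had a median of -0.82, and without liver shNT replicate 1, 3 or 4 it was -0.17, -0.09 or -0.20. In the IFIT family Ifit2 was called, and Ifit3 as well under the block, and 3 of 4 had a higher fitted level in kidney.

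**Figure D1:**
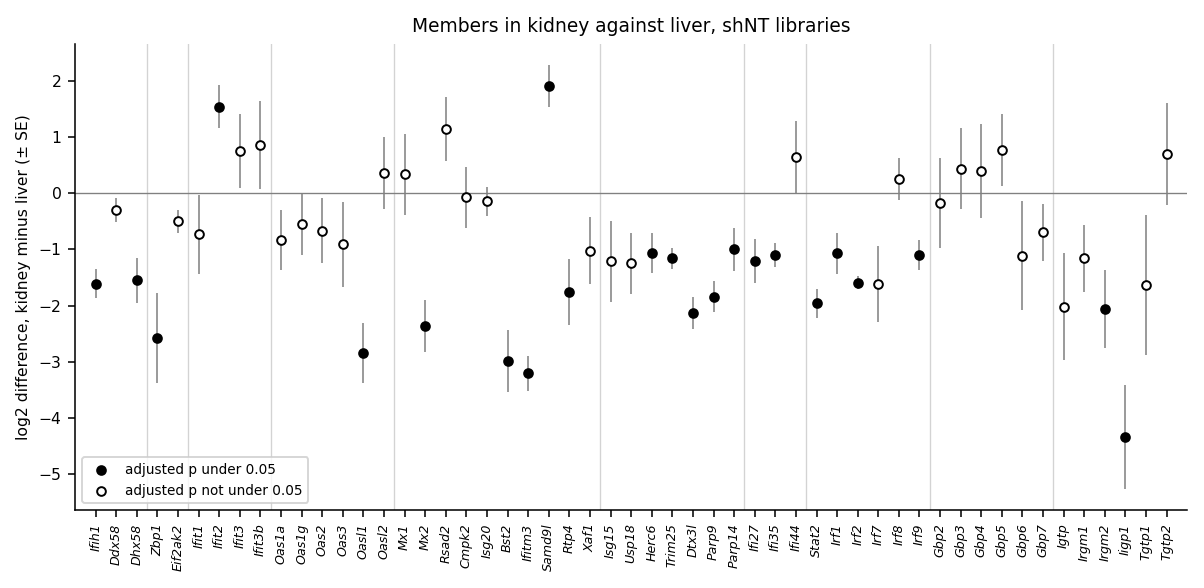
Log2 difference of each member between kidney and liver in the shNT libraries (vertical axis, kidney minus liver, bars show ± 1 SE of the edgeR fit), with members in order of role along the horizontal axis and filled points for an adjusted p under 0.05. Points lie below 0 for 40 of 53 members, and the filled points are 21 below and 2 above 0.

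Within the shNT groups the members differed far more between libraries than other genes did. Their median SD of log2 CPM over the 4 libraries was 0.77 in kidney shNT against 0.20 over 15421 genes, and 1.0 in liver shNT against 0.33. In the shFOS groups it was 0.25 against 0.21 in kidney and 0.28 against 0.22 in liver. Without replicate 4 the members' median SD was still 0.60 against 0.13 in kidney shNT and 0.65 against 0.24 in liver shNT. No test was made of these spreads.

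The spread had the same order in both organs. In kidney, shNT replicate 2 was the highest of the 4 shNT libraries for 52 of 53 members, the exception being Samd9l, and in liver it was the highest for 43 of 53. Replicate 2 was the highest shNT library in both tissues for 43 members, while this held for 5.78% of all genes. Replicate 4 was the lowest of the shNT libraries for 49 of 53 members in kidney, for 43 in liver, and in both tissues for 40, against 13.4% of all genes. The mean log2 CPM over the 53 members was 3.82, 4.93, 3.91 and 2.98 in kidney shNT replicates 1 to 4 and 4.58, 5.79, 4.90 and 3.73 in liver shNT. In the shFOS libraries it was 3.76, 3.81, 4.06 and 3.63 in kidney and 5.17, 5.17, 4.71 and 4.93 in liver. All 8 shFOS means lay inside the range of the shNT libraries of their tissue.

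**Figure D2:**
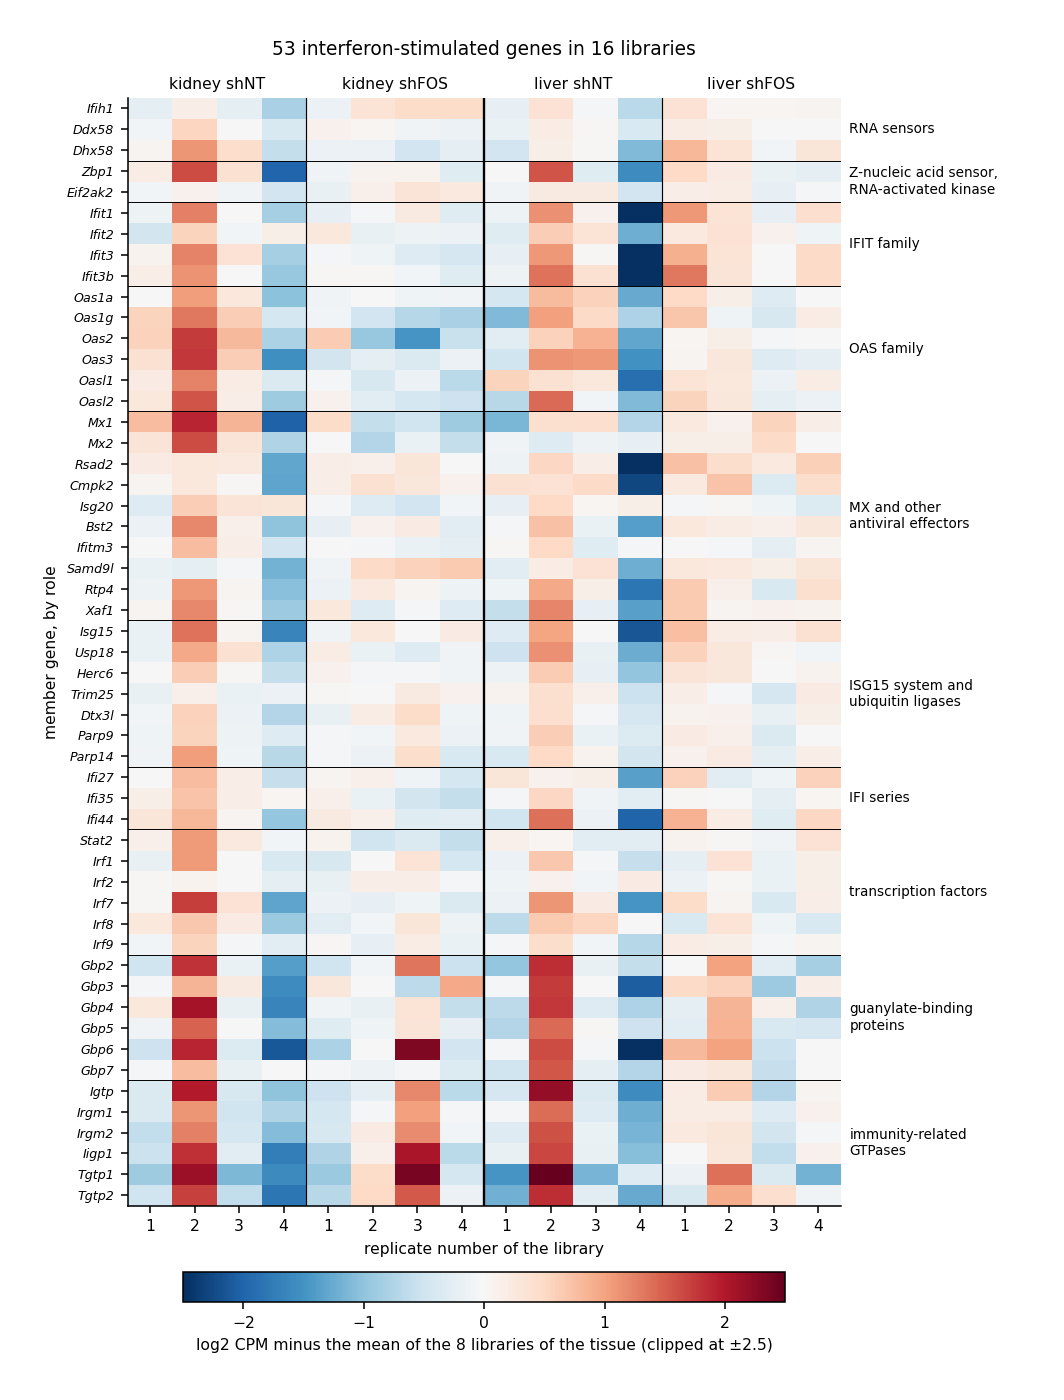
Log2 CPM of each member (rows, by role) in each library (columns, replicate numbers within the 4 groups), with the mean of the 8 libraries of the tissue subtracted and the colour clipped at ±2.5. The columns of shNT replicate 2 are red and those of shNT replicate 4 blue in both tissues for most members, and kidney shFOS replicate 3 is red for the GTPases at the bottom.

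Markers of several cell types also had their extremes in these 2 libraries, and others did not. Of 8 T cell genes, 7 were highest in replicate 2 and 8 lowest in replicate 4 of kidney shNT, and 5 were highest in replicate 2 and 6 lowest in replicate 4 of liver shNT. Their summed level was 28.2, 40.5, 22.8 and 4.06 CPM in kidney shNT replicates 1 to 4, 7.66, 17.6, 32.3 and 6.67 CPM in liver shNT, 16.9 to 31.7 CPM in kidney shFOS and 8.47 to 25.4 CPM in liver shFOS, and none of the 8 genes was at 0 counts in any library. Of 9 macrophage and Kupffer cell genes, 6 were highest in replicate 2 and 6 lowest in replicate 4 of kidney shNT, but none was so in liver shNT. Of 6 NK cell genes, 5 were highest in replicate 2 and 5 lowest in replicate 4 of kidney shNT, and 4 were highest in replicate 2 and 6 lowest in replicate 4 of liver shNT. Their summed level was 1.25, 4.5, 1.52 and 0.42 CPM in kidney shNT and 4.43, 11.3, 6.95 and 2.02 CPM in liver shNT, and 3 of the 6 had 0 counts in some kidney library and 2 in some liver library. Of 6 B and plasma cell genes, none was highest in replicate 2 of either tissue, while 6 were lowest in replicate 4 of kidney shNT and 5 in replicate 4 of liver shNT. All 5 endothelial genes were lowest in replicate 4 of kidney shNT, against 1 of 5 in liver. The 6 neutrophil genes summed to 16.4 CPM in kidney shNT replicate 4 against 2.11 to 2.39 CPM in the other shNT kidneys, and to 159 CPM in liver shNT replicate 4 against 17.5 to 49.4 CPM in the other shNT livers, and all 6 were highest in that liver library, while 2 of them had 0 counts in some kidney library. All 5 proximal tubule genes were lowest in replicate 4 of kidney shNT, and all 6 hepatocyte genes were lowest in replicate 2 of kidney shNT. Of all genes, 18.7% were highest in replicate 2 and 33.4% lowest in replicate 4 of kidney shNT. In liver shNT these shares were 21.3% and 28.8%. The part of these cell types in the members' levels was not tested.

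The shFOS against shNT changes were read against this spread. In kidney, 38 of 53 members had a lower fitted level in shFOS and 15 a higher one, with a median log2 difference of -0.25, while 49.7% of all genes tested were lower and their median was 0.00. None of the 53 passed the edgeR test, as none of the 14892 genes did (0.00% called). At an unadjusted p under 0.05, 3 members were lower (Oas1g, Ifi35 and Stat2), against 14.9% of all genes, and 2 were higher (Ifih1 and Samd9l), against 17.1%. DESeq2 called 3 members, Oas1g, Samd9l and Stat2, against 19.7% of genes with an adjusted p. The shFOS and shNT libraries overlapped in kidney for all 53 members, while 7.29% of all genes did not overlap and were lower in shFOS and 9.90% did not overlap and were higher.

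In liver, 26 members had a lower and 27 a higher fitted level in shFOS, with a median log2 difference of 0.03, while 52.3% of all genes were lower and their median was -0.01. None of the 53 members and none of the 13144 genes passed the edgeR test (0.00% called), and DESeq2 called no member and 0.306% of genes. At an unadjusted p under 0.05, Dhx58 and Mx2 were higher, against 3.60% of all genes, and no member was lower, against 3.23%. Mx2 was the only member whose liver groups did not overlap, with all 4 shFOS libraries above all 4 shNT libraries, which held for 3.23% of all genes in that direction.

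**Figure D3:**
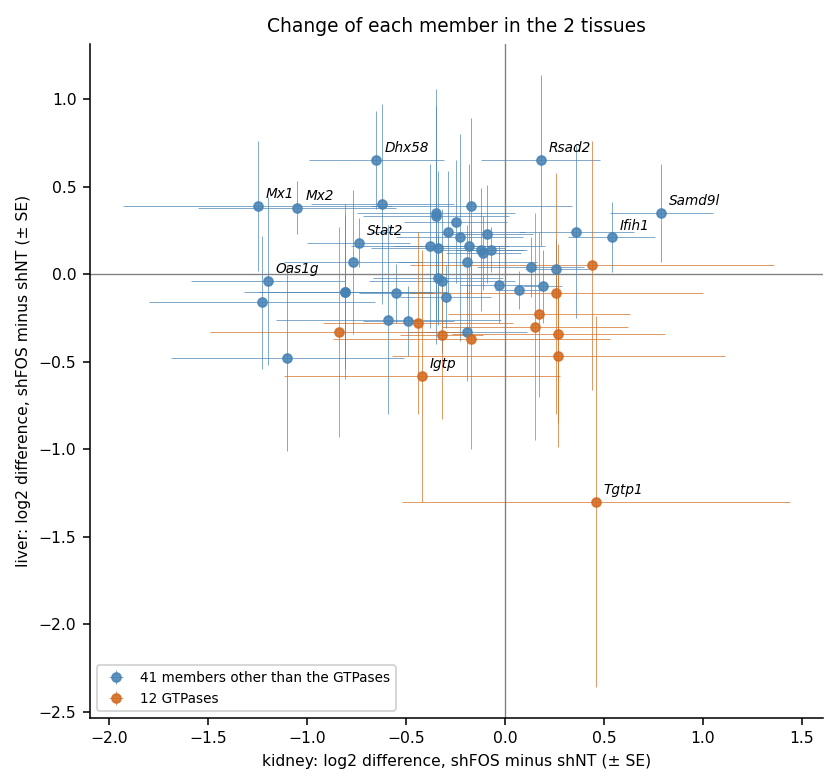
Log2 difference between shFOS and shNT of each member in kidney (horizontal axis) and in liver (vertical axis), with bars of ± 1 SE from the edgeR fits. Orange marks the 12 guanylate-binding proteins and immunity-related GTPases, and blue the 41 other members, Mx1 and Mx2 among them. Of the blue points 20 lie in the upper left quadrant, lower in kidney and higher in liver, and none of the orange points lies there.

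The nucleic acid sensors were spread over both directions. Ddx58 was 37.5, 57.0, 38.9 and 30.1 CPM in kidney shNT replicates 1 to 4 and 42.4, 40.5, 37.1 and 35.2 CPM in kidney shFOS, and the groups overlapped (log2 difference -0.07 ± 0.18 SE). In liver it was 47.1, 60.7, 54.4 and 41.1 CPM in shNT and 60.1, 58.9, 52.7 and 53.7 CPM in shFOS (0.14 ± 0.13). Dhx58, encoding LGP2, a regulator of the other RNA sensors, was 4.22, 8.82, 5.52 and 2.61 CPM in kidney shNT replicates 1 to 4 and 3.65, 3.61, 2.87 and 3.37 CPM in kidney shFOS (-0.65 ± 0.34), so that all 4 shFOS libraries lay below shNT replicates 1 to 3 and above shNT replicate 4. In liver Dhx58 was 13.6, 21.1, 19.2 and 8.69 CPM in shNT and 33.8, 23.9, 17.9 and 23.4 CPM in shFOS (0.65 ± 0.28), with shFOS replicate 1 the highest of the 8. Zbp1, a sensor of Z-form nucleic acid that can start necroptosis, was 6.90, 19.0, 7.96 and 1.45 CPM in kidney shNT replicates 1 to 4 and 5.68, 6.42, 6.48 and 4.93 CPM in kidney shFOS (-0.59 ± 0.57). Its liver values were 41.8, 124, 33.9 and 14.0 CPM in shNT and 59.0, 48.1, 37.3 and 35.7 CPM in shFOS (-0.26 ± 0.54). In both organs the 4 shFOS libraries of Zbp1 fell between shNT replicates 2 and 4. Ifih1, encoding MDA5, was among the 15 members with a higher fitted level in kidney shFOS (0.54 ± 0.22).

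All 4 IFIT genes had a lower fitted level in kidney shFOS (median -0.35) and a higher one in liver shFOS (median 0.34). Ifit3, the most abundant of them, was 32.3, 71.8, 38.9 and 17.0 CPM in kidney shNT replicates 1 to 4 and 29.5, 28.2, 24.2 and 22.5 CPM in kidney shFOS (log2 difference -0.62 ± 0.36 SE). The liver values were 19.8, 48.6, 23.6 and 3.67 CPM in shNT and 42.5, 29.2, 23.3 and 32.1 CPM in shFOS (0.40 ± 0.57), so that shNT replicate 4 alone was far below the rest. Ifit2 was 25.0, 18.3, 19.0 and 18.8 CPM in kidney shFOS (-0.12 ± 0.21) and 8.93, 9.64, 8.06 and 6.93 CPM in liver shFOS (0.14 ± 0.35), against the shNT values given above. In both tissues the shFOS values of Ifit2 lay inside the shNT range. Over the 4 IFIT genes the mean log2 CPM was 3.36, 4.59, 3.76 and 0.97 in liver shNT replicates 1 to 4. In liver shFOS it was 4.43, 3.89, 3.52 and 3.86, inside the range of shNT replicates 1 to 3. In kidney it was 3.91, 5.04, 4.06 and 3.38 in shNT and 4.01, 3.93, 3.92 and 3.7 in shFOS, inside the range of the 4 shNT libraries.

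The 6 OAS genes, of a family best known for the 2′-5′ oligoadenylate that activates RNase L, had the lowest kidney median of any role, -0.95. All 6 had a lower fitted level in kidney shFOS. In liver 5 of 6 were lower, with a median of -0.07. Oasl2 was 25.2, 62.4, 23.8 and 11.3 CPM in kidney shNT replicates 1 to 4 and 22.7, 17.4, 15.5 and 14.7 CPM in kidney shFOS (-0.81 ± 0.44 SE). Its liver values were 12.6, 54.7, 19.3 and 9.36 CPM in shNT and 29.8, 24.7, 17.3 and 18.5 CPM in shFOS (-0.10 ± 0.50). Oas1g was 2.55, 4.41, 2.67 and 1.21 CPM in kidney shNT replicates 1 to 4 and 1.61, 1.19, 0.989 and 0.91 CPM in kidney shFOS (-1.20 ± 0.39). Every kidney shFOS library of Oas1g lay below shNT replicates 1 to 3, and replicate 4 of shNT lay among them. In liver Oas1g was 1.57, 7.32, 4.97 and 2.02 CPM in shNT and 5.74, 3.24, 2.63 and 4.02 CPM in shFOS (-0.04 ± 0.48), and the groups overlapped.

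Among the MX and other antiviral effectors, 7 of 10 were lower in kidney shFOS and 8 of 10 higher in liver shFOS. The mean log2 CPM of the 10 was 3.74, 4.54, 3.88 and 2.7 in kidney shNT replicates 1 to 4 and 3.73, 3.61, 3.68 and 3.5 in kidney shFOS. In liver it was 4.51, 5.23, 4.81 and 3.58 in shNT and 5.05, 4.93, 4.79 and 4.93 in shFOS. The liver shFOS means lay inside the range of shNT replicates 1 to 3. Mx1, of a family of dynamin-like GTPases known for trapping viral nucleocapsids, was 3.61, 8.12, 3.82 and 0.42 CPM in kidney shNT replicates 1 to 4 and 2.91, 1.33, 1.43 and 1.07 CPM in kidney shFOS (-1.25 ± 0.68 SE). Its liver values were 1.48, 4.56, 4.61 and 2.02 CPM in shNT and 4.07, 3.71, 5.10 and 3.85 CPM in shFOS (0.39 ± 0.37). Mx2, annotated as a polymorphic pseudogene in the reference genome, was 1.71, 4.41, 1.70 and 0.747 CPM in kidney shNT replicates 1 to 4 and 1.34, 0.761, 1.19 and 0.857 CPM in kidney shFOS (-1.05 ± 0.50). RNA levels do not show whether Mx1 or Mx2 makes a working protein in these mice. In kidney both MX genes were highest in shNT replicate 2 and lowest in shNT replicate 4. In liver Mx2 was 12.0, 10.2, 11.7 and 11.1 CPM in shNT and 14.1, 14.3, 17.9 and 12.7 CPM in shFOS (0.38 ± 0.15), without overlap and without the wide shNT spread of the other members.

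Samd9l ran against most of the list in kidney, with 147, 218, 233 and 246 CPM in shFOS against the shNT values above (log2 difference 0.79 ± 0.26 SE), and 3 of the 4 shFOS libraries lay above every shNT library. The liver shFOS values were 42.4, 41.8, 39.0 and 43.6 CPM (0.35 ± 0.28). Rsad2 was 36.2, 35.4, 39.6 and 32.2 CPM in kidney shFOS (0.18 ± 0.30) and 26.5, 21.4, 18.9 and 24.0 CPM in liver shFOS (0.65 ± 0.49). Without shNT replicate 4 its shNT and shFOS values overlapped in both tissues. Isg20, an exonuclease of viral RNA, was 3.15, 6.19, 5.02 and 4.95 CPM in kidney shNT replicates 1 to 4 and 3.88, 3.19, 2.82 and 3.80 CPM in kidney shFOS (-0.49 ± 0.23). Its liver values were 4.15, 6.83, 4.97 and 5.32 CPM in shNT and 4.62, 4.90, 4.44 and 3.77 CPM in shFOS (-0.27 ± 0.20), and Isg20 overlapped in both tissues. Bst2 was 21.7, 27.2, 29.1 and 20.7 CPM in kidney shFOS (-0.29 ± 0.39) and 298, 281, 270.1 and 300.4 CPM in liver shFOS (0.24 ± 0.35). Ifitm3 was 61.5, 60.2, 54.9 and 51.9 CPM in kidney shFOS (-0.30 ± 0.23) and 629, 609, 533 and 650.1 CPM in liver shFOS (-0.13 ± 0.18). The shFOS values of Bst2 and Ifitm3 lay within the shNT range in both tissues. The other 3, Cmpk2, Rtp4 and Xaf1, had log2 differences between -0.38 and 0.36 in kidney and between 0.16 and 0.24 in liver.

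The group of the ISG15 system and ubiquitin ligases had median log2 differences of -0.09 in kidney and 0.07 in liver. The range over its 7 genes was -0.34 to 0.19 in kidney and -0.07 to 0.39 in liver. Trim25 was 51.8, 64.1, 52.3 and 53.2 CPM in kidney shNT replicates 1 to 4 and 60.1, 59.3, 68.9 and 63.0 CPM in kidney shFOS (0.19 ± 0.10 SE). The liver libraries gave 127, 158, 129.6 and 82.6 CPM in shNT and 133, 116, 89.4 and 138 CPM in shFOS (-0.07 ± 0.21). Isg15 itself, the ubiquitin-like modifier, had a log2 difference of -0.17 ± 0.51 in kidney and 0.39 ± 0.50 in liver. Of the IFI genes, Ifi27, which encodes a small membrane protein, was 44.0, 75.8, 49.6 and 29.5 CPM in kidney shNT replicates 1 to 4 and 46.0, 48.1, 41.1 and 32.7 CPM in kidney shFOS (-0.25 ± 0.26). Its liver values were 150.4, 131, 135 and 47.6 CPM in shNT and 181, 102, 113 and 183 CPM in shFOS (0.30 ± 0.35). The Ifi27 groups overlapped in both tissues. Ifi35 was 20.5, 30.5, 20.7 and 19.0 CPM in kidney shNT replicates 1 to 4 and 20.1, 16.4, 13.4 and 12.2 CPM in kidney shFOS (-0.55 ± 0.19), with 3 shFOS libraries below all shNT libraries and shFOS replicate 1 among them. In liver Ifi35 was 45.9, 67.4, 44.3 and 38.6 CPM in shNT and 48.0, 46.7, 40.3 and 48.5 CPM in shFOS (-0.11 ± 0.17).

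Of the 6 transcription factors, 5 were lower in kidney shFOS and 4 in liver shFOS. Stat2, the STAT of the type I response, was 27.8, 53.3, 30.0 and 24.0 CPM in kidney shNT replicates 1 to 4 and 26.9, 17.8, 19.8 and 16.6 CPM in kidney shFOS (log2 difference -0.74 ± 0.26 SE). In kidney, 3 shFOS libraries of Stat2 lay below all shNT libraries, and shFOS replicate 1 lay between shNT replicates 1 and 4. In liver Stat2 was 153, 146, 116 and 115 CPM in shNT and 149, 144, 132 and 181 CPM in shFOS (0.18 ± 0.14), and the groups overlapped. The other 5 factors had log2 differences of -0.81 (Irf7) to 0.07 (Irf2) in kidney and -0.33 (Irf8) to 0.12 (Irf9) in liver.

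The 12 GTPases were set apart from the 41 other members after the values were seen. In the shNT libraries both sets had the same order, with replicate 2 highest and replicate 4 lowest, and in the shFOS libraries the order differed. In kidney their median log2 difference was 0.16, with 7 higher and 5 lower in shFOS, against -0.30 with 8 higher and 33 lower for the others. In liver it was -0.33, with 1 higher and 11 lower, against 0.14 with 26 higher and 15 lower. None of them had an unadjusted p under 0.05 in either tissue. The mean log2 CPM of the GTPases was 3.99, 5.91, 4.0 and 3.02 in kidney shNT replicates 1 to 4 and 3.91, 4.38, 5.42 and 4.07 in kidney shFOS, where replicate 3 was the highest for 11 of 12. In liver it was 4.56, 6.94, 4.84 and 3.93 in shNT and 5.19, 5.79, 4.72 and 4.87 in shFOS, where replicate 2 was the highest for 11 of 12. For the 41 other members it was 3.72, 3.64, 3.67 and 3.50 in kidney shFOS, so that replicate 3 did not stand out, and 5.16, 4.99, 4.71 and 4.95 in liver shFOS.

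**Figure D4:**
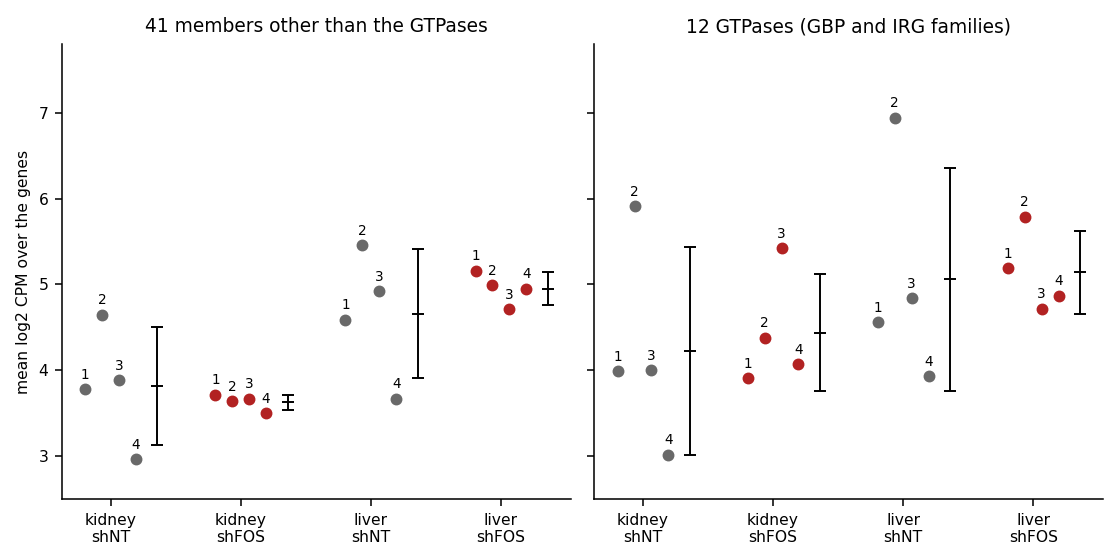
Mean log2 CPM (vertical axis) of the 41 members other than the GTPases (left) and of the 12 GTPases (right) in each of the 16 libraries, with the replicate number above each point and, beside each group, its mean ± SD (n = 4). shNT replicate 2 is highest and shNT replicate 4 lowest of their group in all 4 shNT sets, and kidney shFOS replicate 3 is high for the GTPases (5.42) but not for the others (3.67).

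Iigp1 showed this in single values, with 17.4, 32.2, 122 and 18.6 CPM in kidney shFOS against the shNT values above (log2 difference 0.27 ± 0.84 SE) and 597, 738, 392 and 649 CPM in liver shFOS (-0.47 ± 0.52). Kidney shFOS replicate 3 and kidney shNT replicate 2 were the only kidney libraries in which it passed 100 CPM. Gbp3, the most abundant guanylate-binding protein, was the exception, at 48.5, 89.9, 58.4 and 16.7 CPM in kidney shNT replicates 1 to 4 and 60.8, 49.5, 31.6 and 96.2 CPM in kidney shFOS (0.15 ± 0.47), with replicate 4 and not replicate 3 the highest of shFOS. Its liver values were 28.0, 95.6, 28.9 and 6.74 CPM in shNT and 39.9, 42.8, 15.0 and 32.2 CPM in shFOS (-0.30 ± 0.65). Tgtp1 had the widest change of the list in liver (-1.30 ± 1.06), where shNT replicate 2 was far above the other libraries, with 4.61, 130.5, 5.78 and 10.4 CPM in shNT and 11.8, 34.1, 10.2 and 5.73 CPM in shFOS. Of the T cell genes, 6 of 8 were highest in replicate 3 of kidney shFOS (31.7 CPM summed, against 16.9 to 23.4 in the others) and 6 of 8 in replicate 2 of liver shFOS (25.4 CPM, against 8.47 to 17.1). Kidney shFOS replicate 3 was also highest for 5 of 9 macrophage and Kupffer cell genes. The same held for 3 of 6 NK cell, 3 of 6 B and plasma cell and 3 of 6 neutrophil genes. It was highest for none of the 5 endothelial or 4 adipocyte genes. Some macrophage, NK cell and neutrophil genes had 0 counts in some kidney library. All 9 macrophage and Kupffer cell genes were also highest in liver shFOS replicate 2. So were 5 of 5 plasmacytoid dendritic cell, 4 of 4 adipocyte, 4 of 6 NK cell and 4 of 5 proximal tubule genes. Some genes of these 4 lists had 0 counts in some liver library. None of the hepatocyte, B and plasma cell or neutrophil genes was highest there. Of all genes, 26.4% were highest of their group in kidney shFOS replicate 3 and 22.7% in liver shFOS replicate 2. The part of these cells was not tested.

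The direction of change was then set side by side in the 2 tissues. Of the 53 members, 20 were lower in kidney and higher in liver shFOS, 18 were lower in both, 7 higher in both and 8 higher in kidney and lower in liver. Over the 12727 genes tested in both tissues these shares were 20.6%, 27.5%, 26.9% and 25.0%, against 37.7%, 34.0%, 13.2% and 15.1% of the members. The 20 were all outside the 12 guanylate-binding proteins and immunity-related GTPases, and they included Mx1 and Mx2. The interaction of tissue and treatment, liver change minus kidney change, had a median of 0.30 over the members with 34 above 0, against 49.6% of all genes above 0. None of the 53 members and none of 15421 genes passed the edgeR interaction test (0.00% called), and DESeq2 called no member and 2.95% of genes. At an unadjusted p under 0.05, 3 members were above 0, against 7.85% of all genes, and none was below, against 8.22%. These were Stat2 (0.92 ± 0.31 SE, adjusted p = 0.2), Dhx58 (1.31 ± 0.46, adjusted p = 0.205) and Mx2 (1.43 ± 0.51, adjusted p = 0.209), followed by Mx1 (1.63 ± 0.83, adjusted p = 0.341).

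The opposite direction of the medians in the 2 tissues depended on which libraries were included. Without kidney shNT replicate 2 the kidney median of the members was 0.13 with 15 of 53 lower, without kidney shNT replicate 4 it was -0.48 with 45 lower, and without replicate 1 or 3 it was -0.36 or -0.28 with 38 lower. Without liver shNT replicate 2 the liver median was 0.42 with 5 lower, without liver shNT replicate 4 it was -0.18 with 41 lower, without replicate 1 it was -0.07 with 32 lower, and without replicate 3 it was 0.07 with 24 lower. Leaving out liver shFOS replicate 1 or 2 gave -0.01 or -0.03. Without replicate 2 of shNT in each tissue, 36 members were higher in both tissues and 12 lower in kidney and higher in liver. Without replicate 4 of shNT in each tissue, 35 were lower in both tissues and 10 lower in kidney and higher in liver. The median interaction was -0.14 without kidney shNT replicate 2, 0.79 without liver shNT replicate 2, 0.18 without replicate 2 in all groups and 0.22 without replicate 4 in all groups. Leaving out kidney shFOS replicate 1 brought 6 members past the edgeR threshold in kidney, where it brought 27.8% of all genes past it, and 1, Stat2, in the interaction, where it brought 7.88% of all genes past it. For the GTPases in kidney, leaving out shFOS replicate 3 also turned the median, to -0.66 with 11 of 12 lower.

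**Figure D5:**
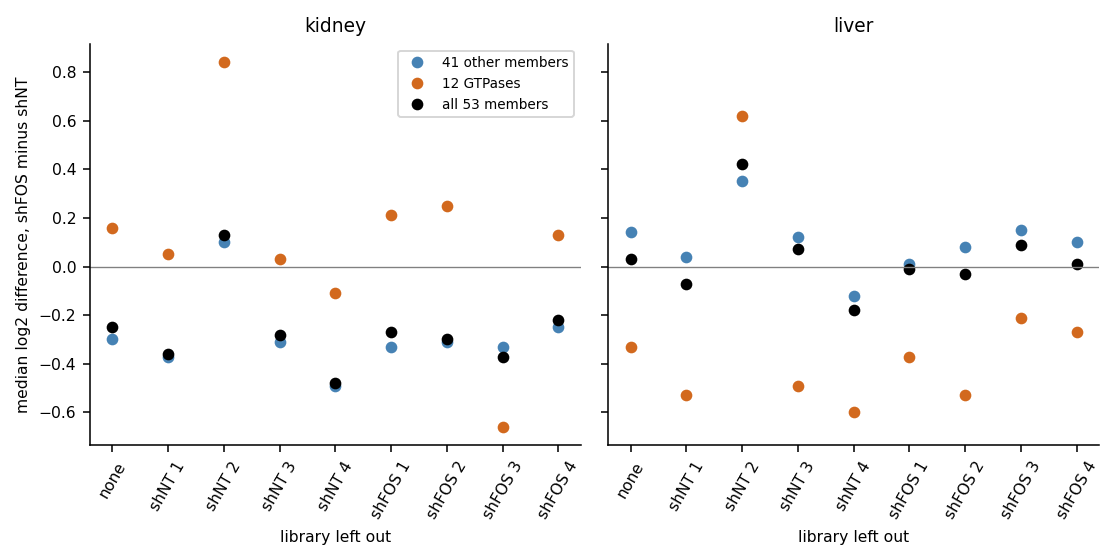
Median log2 difference between shFOS and shNT (vertical axis) of all 53 members, of the 12 GTPases and of the 41 others in kidney (left) and liver (right), with no library or the named library left out (horizontal axis). Leaving out shNT replicate 2 gives positive medians in both tissues (0.13 and 0.42 for all members) and leaving out shNT replicate 4 gives negative ones (-0.48 and -0.18).

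The other genes of the pathway were counted in the same fits. Of 12 interferon ligands, 7 had 0 counts in all 16 libraries and 4, Ifnb1 among them, had no more than 1 read in any library, below the floor of 3 reads. Interferon gamma (Ifng) reached 11 reads at most and was 0.185, 0.516, 0.368 and 0 CPM in kidney shNT replicates 1 to 4, 0, 0.143, 0.346 and 0.107 CPM in kidney shFOS, 0, 0.569, 0.219 and 0.0749 CPM in liver shNT and 0.159, 0.316, 0 and 0.0856 CPM in liver shFOS. Its highest library in each group was the one in which the GTPases were highest, shNT replicate 2 in both tissues, shFOS replicate 3 in kidney and shFOS replicate 2 in liver, although most of these values lie within a few reads of the floor. No ligand passed the filter on low counts.

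In the shNT groups each receptor gene varied less between libraries than most of the members did. Ifnar1 was 42.1 to 50.0 CPM over the 8 kidney libraries and 45.9 to 59.3 CPM over the 8 liver libraries. Ifnar2 was 44.7, 48.7, 44.3 and 30.6 CPM in kidney shNT and 157, 181, 154 and 159.9 CPM in liver shNT, significantly lower in kidney (log2 difference -1.94 ± 0.16 SE, adjusted p = 9.60e-06). The chains of the interferon gamma receptor, Ifngr1 and Ifngr2, had shFOS against shNT log2 differences of -0.10 ± 0.08 and 0.21 ± 0.13 in kidney and of -0.21 ± 0.17 and -0.30 ± 0.22 in liver. Of the 6 receptor genes, 3 were called between kidney and liver, where 60.1% of all genes were. None of the 6 tested in kidney or of the 5 tested in liver was called between treatments.

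The chemokine Cxcl9, which draws T cells and is a classic target of interferon gamma, was named after its values were seen. It was 7.46, 39.4, 8.84 and 0.187 CPM in kidney shNT replicates 1 to 4 and 3.55, 11.7, 35.6 and 7.87 CPM in kidney shFOS, and 26.5, 214, 43.8 and 6.67 CPM in liver shNT and 48.2, 196, 41.6 and 34.1 CPM in liver shFOS. The 2 highest kidney libraries and the 2 highest liver libraries of Cxcl9 were those in which the GTPases were highest. Cxcl9 was picked from the 58 other interferon-stimulated genes found. Neither the match of Ifng nor that of Cxcl9 with the GTPases was tested.

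Of the 85 pathway genes tested in kidney, 64 were lower and 21 higher in shFOS (median -0.20) and none was called. Over all genes tested in kidney, 49.7% were lower and 0.00% were called. Of the 86 pathway genes tested in liver, 48 were lower and 38 higher (median -0.02) and none was called, where 52.3% of all genes were lower and 0.00% were called. The smallest p among them in kidney was that of Cxcl11, another T cell chemokine, at 1.44, 1.69, 1.06 and 0.887 CPM in kidney shNT replicates 1 to 4 and 0.508, 0.38, 0.198 and 0.375 CPM in kidney shFOS (log2 difference -1.78 ± 0.35 SE, adjusted p = 0.0650), with all 4 shFOS libraries below all 4 shNT libraries. In liver Cxcl11 was 11.4, 8.87, 6.66 and 4.79 CPM in shNT and 7.57, 9.48, 7.81 and 8.47 CPM in shFOS (0.06 ± 0.26). The smallest p in liver was that of Socs3, a feedback inhibitor of cytokine signalling, at 12.3, 17.0, 13.2 and 204 CPM in liver shNT replicates 1 to 4 and 11.6, 10.2, 12.2 and 8.21 CPM in liver shFOS (-2.55 ± 0.92, adjusted p = 0.702), where shNT replicate 4 was far above the other libraries. Its kidney values were 13.4, 12.2, 14.2 and 29.6 CPM in shNT and 8.49, 12.0, 8.16 and 9.10 CPM in shFOS. Among the 55 other interferon-stimulated genes tested in kidney, 46 were lower with a median of -0.23, against 49.7% of all genes. Among the 57 tested in liver, 24 were lower with a median of 0.02, against 52.3% of all genes. These lists were read in the same libraries as the members, whose kidney median turned to 0.13 without kidney shNT replicate 2. Between kidney and liver in shNT, 31 of 87 pathway genes were significantly lower and 5 significantly higher in kidney, against 27.7% and 32.3% of all genes tested.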

How the data were processed

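RNA was sequenced from kidney and liver of the shNT and shFOS mice, 4 libraries per group, grouped by the treatment and tissue given in the labels. The deposited values are raw counts of reads per gene, 1 table per library. Per the labels, the authors trimmed reads with Trimmomatic 0.39, aligned them to mm10 with HISAT2 2.2.1 and counted them with HTSeq 0.12.4, and per their methods the counting ignored strand. Reads assigned to no gene (13.4% to 26.7%) or to more than 1 (1.84% to 2.64%) were left out. Both shares are of the counted reads and these classes together, so any other uncounted reads are not in them. The number of counted reads limits the precision of low genes, and floors cover counting error only.

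Counts were tested with edgeR 4.0.16 in R 4.3.3 (filterByExpr, TMM, robust dispersions, quasi-likelihood test, Benjamini-Hochberg adjustment over all genes tested, called at adjusted p under 0.05), for shFOS against shNT in each tissue, for the interaction over 16 libraries, and for kidney against liver in shNT. CPM and log2 CPM (prior count 2) share one TMM scale over the 16 libraries. The scripts were tested on simulated data. The members, role groups and pathway lists were chosen with earlier results of these data known. Members named with values in every library were, by rule, the most abundant of each role, the 4 with the smallest p in each treatment fit and in the interaction, the 3 with the largest difference in each direction between tissues, and set pathway genes. A gene that this rule also names is not reported here. Other genes named were picked after their values were seen.

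Deviations from the group mean over 15421 genes correlated between kidney and liver libraries of the same number at 0.12, 0.29, 0.33 and 0.31 in shNT, all over 0.1. For that comparison a fit with the number as a block was therefore given beside the main fit, which had no block. The pairing is a hint from the data and not from the labels. Kidney replicate 1 correlated slightly better with liver replicate 3 (0.14) than with its own number. In shFOS the correlations for the same number were 0.08, 0.15, 0.04 and 0.11. Alternatives were DESeq2 1.42.0, other scalings and filters (a mean of at least 10 counts, or none), a GC content offset, a replicate block, the newer dispersion of edgeR, a fit of all 16 libraries and leaving out libraries. Promoters came from the RefSeq table of GRCm38.p6, and gene positions, lengths and biotypes from the GENCODE annotation of the same build.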

Additional observations from a re-analysis of the deposited data

Results flagged for a closer look

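Among the members named with values in every library and the means of the role groups, 132 sets of 4 libraries were examined for 1 library far from the other 3, and 7 such cases were found, where chance gives about 1 in 20 (6.6). Of these, 6 lay in shNT replicate 2 or 4 or in kidney shFOS replicate 3. Kidney shNT replicate 2 was far above the rest for Trim25 (64.1 CPM against 51.8 to 53.2 CPM in the other 3 libraries), for Iigp1 (105 CPM against 8.82 to 24.2 CPM in the other 3 libraries) and for Ifi35 (30.5 CPM against 19.0 to 20.7 CPM in the other 3 libraries). Iigp1 was also far above the rest in kidney shFOS replicate 3 (122 CPM against 17.4 to 32.2 CPM in the other 3 libraries) and in liver shNT replicate 2 (1910.0 CPM against 289 to 533 CPM in the other 3 libraries). Rsad2 was far below the rest in kidney shNT replicate 4 (13.0 CPM against 37.1 to 38.8 CPM in the other 3 libraries). The last case was Ifit2 in kidney shFOS replicate 1 (25.0 CPM against 18.3 to 19.0 CPM in the other 3 libraries), a library in which 18 of 53 members were the highest of their group.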

How the results depend on the processing

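Under DESeq2, 3 members were called between treatments in kidney against 0 with edgeR, and leaving out 1 library gave 0 to 6, the 6 (Ifih1, Oas1g, Oas2, Samd9l, Ifi35 and Stat2) without kidney shFOS replicate 1, when 27.8% of all genes were called. No alternative called a member in liver. In the interaction, leaving out libraries gave 0 to 1 called members, the 1 being Stat2 without kidney shFOS replicate 1. Between kidney and liver in shNT the count was 42 with the replicate block against 23 without it, 16 to 29 with libraries left out, including the same number in both tissues, which was chosen after seeing the data, and 20 to 28 otherwise. The median log2 difference of the members ran from -0.48 to 0.13 in kidney, from -0.18 to 0.42 in liver, from -0.14 to 0.79 in the interaction and from -1.32 to -0.54 between kidney and liver when libraries were left out. The number of members with a difference under 0 then ran from 15 to 45 in kidney, from 5 to 41 in liver, from 5 to 34 in the interaction and from 36 to 44 between kidney and liver. Among the other alternatives, the replicate block moved the median to -0.11 in kidney (from -0.25) and to 0.15 in liver (from 0.03), where 14 members were lower against 26, and the liver median was 0.01 with the GC content offset and 0.02 with DESeq2, with RLE scaling and without a filter on low counts. Within a tissue the replicate numbers did not pair the shNT and shFOS libraries (correlations of -0.12, 0.02, 0.11 and -0.14 in kidney and of -0.04, 0.04, -0.04 and -0.24 in liver), and the block changed no call there or in the interaction. Upper-quartile scaling moved the median of all genes between kidney and liver to 0.21, where 20 members were called and the members' median was -0.89. Beyond these counts, Zbp1 and Ifi27 lost their call between kidney and liver in some of the settings that left out libraries (highest adjusted p 0.0786 for Zbp1 and 0.122 for Ifi27), and no named member that was called there changed sign. The causes of these shifts were not tested.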
